A study of Mus musculus with 30 samples.

Results

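The retinal pigment epithelium (RPE) of *Mertk*-/-V1 mice was compared with that of C57BL/6 wild-type mice (B6 WT) at P25, that is, postnatal day 25. The comparison used 12 of the 30 libraries of the series, 6 of each genotype, chosen by the tissue and genotype in their labels, and the labels number the replicates 1 to 6 in both groups. B6 WT mice were C57BL/6J. *Mertk*-/-V1 mice (V1) carry a deletion of the exon that codes for part of the MERTK kinase domain, in which a neomycin resistance cassette was kept. The allele was made in E14TG2a embryonic stem cells, which are not of C57BL/6 origin, and was bred onto C57BL/6J, and the mice keep a segment of chromosome 2 of the stem cell strain around *Mertk*. The V1 mice therefore differ from B6 WT mice in chromosome 2 alleles of that strain as well as in *Mertk*, and the 2 cannot be told apart in this comparison. RNA was taken from RPE cells dislodged from the posterior eyecup, and polyadenylated RNA was sequenced in paired-end reads. Each library is described as a biological replicate, and the p-values below measure the spread between these libraries. In bulk tissue, fewer cells of a type and less RNA per cell cannot be told apart.

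The RPE is a pigmented monolayer between the photoreceptors and the choroid. It recycles the vitamin A chromophore through the visual cycle, carries ions, lactate and nutrients, and engulfs the tips of photoreceptor outer segments that are shed each day. MERTK, with TYRO3 and AXL, belongs to the TAM family of receptor tyrosine kinases, and in the RPE it drives that engulfment. In macrophages and dendritic cells TAM receptors also restrain inflammatory and interferon signalling, in part through SOCS proteins. Interferons act through transcription factors that include STAT2 and IRF9, which bind short promoter elements of antiviral genes such as *Ifit1*, *Isg15* and the guanylate-binding proteins. Microglia and macrophages of the subretinal space, between RPE and photoreceptors, can adhere to an RPE preparation, as can fragments of photoreceptors.

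The 2 replicate sets differed in depth and in content. B6 WT libraries held 23417838 to 30196674 reads on genes in replicates 1 to 3 and 14137666 to 18266704 in replicates 4 to 6, and V1 libraries held 27958711 to 34124049 and 19791803 to 20779930. With the genotype held, 7666 of 18795 genes tested differed between the sets, so the set was a term in the fit. The first principal component took 61.5% of the variance and placed V1 replicates 5 and 6 farthest out. Summed over 15 RPE markers, B6 WT libraries held 576324 to 957017 normalized counts and V1 libraries 235314 to 713422, with 305533 in V1 replicate 5 and 235314 in V1 replicate 6. RPE markers such as *Rpe65*, *Ttr* and *Rlbp1* were among the abundant transcripts, but *Best1*, a chloride channel gene that defines RPE, had means of only 30.5 normalized counts in B6 WT and 33.9 in V1. The 25 rod markers summed to 102495 to 521242 in B6 WT and 129955 to 1174562 in V1, highest in V1 replicates 5 (1174562) and 6 (733747). Lens crystallins summed to 34144 to 284383 in B6 WT and 9707 to 406821 in V1, and erythrocyte globins and *Alas2* to 7695 to 54305 and 7336 to 79594. Fibroblast and scleral markers summed to 34717 to 44643 in B6 WT and 44341 to 63326 in V1, although 0 of the 8 passed the test singly. The RPE, rod and lens ranges of the groups overlapped, as the plot of marker sums shows, and the counts of most lists with genes that passed are given below also without V1 replicates 5 and 6 and with the mean of the rod list as a covariate.

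**Figure D1:**
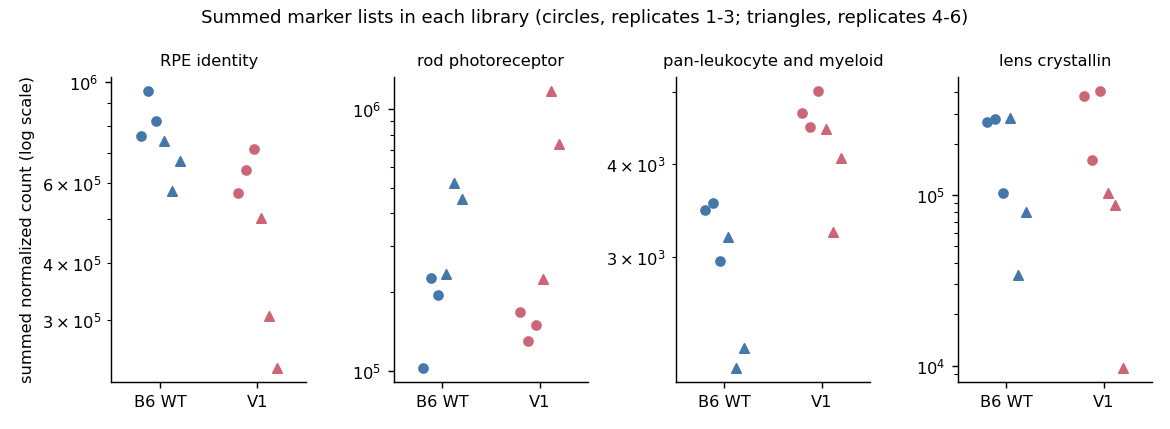
Summed normalized counts of 4 marker lists (RPE, rod, pan-leukocyte and myeloid, lens; log scale) in the 6 B6 WT (blue) and 6 V1 (red) libraries, with circles for replicates 1 to 3 and triangles for replicates 4 to 6. The lowest RPE sum, 235314, is that of V1 replicate 6, the highest rod sum, 1174562, is that of V1 replicate 5, and the myeloid sums run from 2129.6 to 3554 in B6 WT and from 3249 to 5018 in V1.

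The targeted gene was lower in each V1 library. *Mertk* (chr2:128698956-128802894, GRCm38) was at 2638, 3230.1 and 3924 normalized counts in B6 WT (lowest, median and highest of 6 libraries, an order kept for each gene below) and at 919, 1070.5 and 1717 in V1, a log2 fold change of -1.46 ± 0.14 (SE). *Tyro3*, which lies near *Mertk* on chromosome 2, fell by 1.31 ± 0.11 on the log2 scale, from a B6 WT median of 3303 to a V1 median of 1468. *Axl*, the third receptor of the family, on chromosome 7, was at 1492, 1719.7 and 1854 in B6 WT and 1444, 2048 and 2191 in V1, and its log2 fold change of 0.21 ± 0.09 did not pass the test. Both groups overlapped for *Axl*, with V1 replicate 3 the lowest of the 12.

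A gene is said to rise or fall where limma gave a Benjamini-Hochberg adjusted p under 0.05 over all 18795 genes tested, those that averaged 10 normalized counts or more. By this rule 132 genes changed, 0.702% of those tested, 80 upward (0.426%) and 52 downward (0.277%). Of these, 38 (0.202%) also passed the study's threshold on the size of the fold change, and 28 of the 38 lay outside chromosome 2. Outside chromosome 2, 107 of 17387 genes changed (0.615%), 72 upward and 35 downward. Interferon effectors and guanylate-binding or immunity-related GTPases made up 22 of the 72 genes that rose, microglial and myeloid genes made up 11, and 51 of the 107 were in none of the 51 lists used, whose 849 members tested held 59 that changed. Over all genes tested the median log2 fold change was 0.02. The 6 values of B6 WT and the 6 of V1 did not overlap for 204 genes (1.09%), and for 525 genes (2.79%) the groups of 3 did not overlap in either replicate set with the same direction in both. The number of genes that changed depended on single libraries. It was 58 without B6 WT replicate 6, 61 without B6 WT 2, 64 without B6 WT 5, 70 without V1 2, 71 without V1 1 or without B6 WT 1, 74 without B6 WT 3, 85 without V1 6 and 224 without V1 4. The 28 genes past both thresholds outside chromosome 2 became 18 without V1 6, B6 WT 2 or B6 WT 5, 45 without V1 4 and 16 without V1 replicates 5 and 6 together. In each of the 12 fits that left out 1 library the 132 genes kept their sign. These fits share most libraries with the fit that selected the genes, which favours a kept sign. Of the 132, 50 (38 outside chromosome 2) passed the test in all 12.

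**Figure D2:**
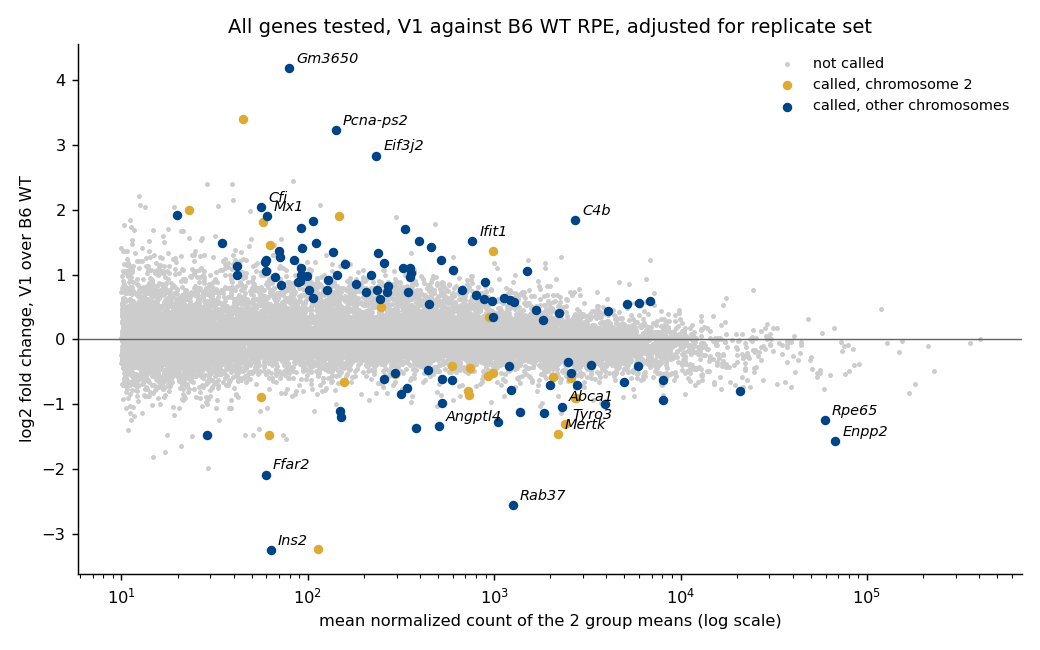
Log2 fold change of V1 over B6 WT against the mean normalized count (log scale) for the 18795 genes tested. Grey points did not pass the test, yellow points are the 25 genes of chromosome 2 that did, and blue points are the 107 on other chromosomes, which reach from *Ins2* at -3.25 to *Gm3650* at 4.19.

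Interferon effectors were the list with the most genes that rose. All 35 members of the list had a positive log2 fold change, 16 of the 35 rose and 0 fell, and the list's median was 0.69 beside 0.02 for all genes. *Ifit1*, which binds viral RNA, was at 274, 400.0 and 443 normalized counts in B6 WT and at 768, 1033 and 1794 in V1. The 2 groups did not overlap, and the log2 fold change was 1.52 ± 0.18 (limma with Benjamini-Hochberg adjustment, adjusted p = 0.00228). *Trim30a*, a tripartite-motif gene induced by interferon, was at 112, 133 and 163 in B6 WT and at 282, 333 and 409 in V1, again without overlap (1.34 ± 0.14). The log2 fold change was largest for *Mx1*, a dynamin-like antiviral GTPase, at 1.90 ± 0.30, from low counts (medians of 22.6 and 86.0).

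The promoters of 3 of these effectors are shown because each holds the core letters of the interferon-stimulated response element, which a complex with STAT2 and IRF9 is known to bind. They run from 250 bases before to 50 after the start of the gene, 5′ to 3′ on the strand of the gene, as RefSeq gives them for GRCm38.p6. They lie at chr19:34640639-34640938 (+) for *Ifit1*, chr12:26456403-26456702 (-) for *Rsad2* and chr4:156200769-156201068 (-) for *Isg15*. Capitals mark matches to the core GAAANNGAA on either strand, where N is any base and overlapping matches run together.
Ifit1: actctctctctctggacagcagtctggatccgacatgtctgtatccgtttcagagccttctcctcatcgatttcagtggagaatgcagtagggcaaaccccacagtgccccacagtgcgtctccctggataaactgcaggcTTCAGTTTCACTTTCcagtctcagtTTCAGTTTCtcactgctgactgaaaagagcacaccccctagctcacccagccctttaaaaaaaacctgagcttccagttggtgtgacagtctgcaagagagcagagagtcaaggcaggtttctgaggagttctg
Rsad2: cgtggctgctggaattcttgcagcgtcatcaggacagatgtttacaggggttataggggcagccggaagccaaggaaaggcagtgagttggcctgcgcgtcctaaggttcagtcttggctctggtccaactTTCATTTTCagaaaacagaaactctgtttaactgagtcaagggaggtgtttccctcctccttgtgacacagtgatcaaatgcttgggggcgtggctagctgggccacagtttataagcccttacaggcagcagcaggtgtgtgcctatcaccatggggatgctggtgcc
Isg15: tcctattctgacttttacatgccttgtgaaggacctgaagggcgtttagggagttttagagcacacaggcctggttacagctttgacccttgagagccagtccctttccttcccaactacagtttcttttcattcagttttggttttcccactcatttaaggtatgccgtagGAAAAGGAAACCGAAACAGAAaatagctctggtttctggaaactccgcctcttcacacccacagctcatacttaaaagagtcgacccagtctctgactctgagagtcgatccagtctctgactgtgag
The capitals begin 109 bases before the start in *Ifit1* and 119 in *Rsad2* and 78 in *Isg15*. Among promoters in the table, 2638 of 27025 genes (9.76%) hold the core, and among genes tested 1116 of 12807 (8.71%). Of the interferon effectors with a promoter there, 16 of 25 tested (64.0%) and 6 of the 11 that rose (54.5%) hold it, *Ifi44*, *Ifit1*, *Isg15*, *Rsad2*, *Stat2* and *Trim30a*. A match is a description of the sequence and no evidence of binding.

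Transcription factors of the pathway that belong to the interferon effector list were among its 16 members that rose. *Stat2* was at 1279, 1403 and 1543 in B6 WT and 1756, 1919 and 2133 in V1 (0.46 ± 0.07), and *Irf9*, its partner, rose by 0.58 ± 0.08. Neither factor had overlapping groups, whereas *Irf7*, which amplifies the response, rose by 0.77 ± 0.12 with overlap of the 2 groups across replicate sets but not within either set. *Rtp4*, an interferon-induced chaperone, rose by 1.11 ± 0.15, and *Ifi44*, an interferon-induced cytoplasmic gene, by 1.42 ± 0.23. *Rsad2* codes for viperin and was at 122, 194 and 467 in B6 WT and 272, 552 and 1176 in V1 (1.43 ± 0.24). Its neighbour *Cmpk2*, 12.8 kb away on chromosome 12 and listed with it as interferon-induced, rose by 1.18 ± 0.20. *Usp18*, a brake on interferon receptor signalling, rose by 0.83 ± 0.16. *Isg15*, the ubiquitin-like modifier, was at 107, 137 and 177 in B6 WT and 134, 271 and 501 in V1. Its groups overlapped, its adjusted p was 0.0494 in limma with Benjamini-Hochberg adjustment, and it passed the test in 2 of the 12 fits without 1 library. In replicates 1 to 3 the list's median was 0.80 and in replicates 4 to 6 it was 0.57. Without V1 replicates 5 and 6, 14 members rose with a median of 0.77, among 117 of 18615 genes that changed (0.629%), and with the rod covariate 25 rose with a median of 0.76, among 499 of 18795 (2.65%). Without 1 library 9 to 16 members rose, and the number fell to 9 without B6 WT replicate 2 and to 10 without B6 WT 3, B6 WT 5 or V1 6.

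**Figure D3:**
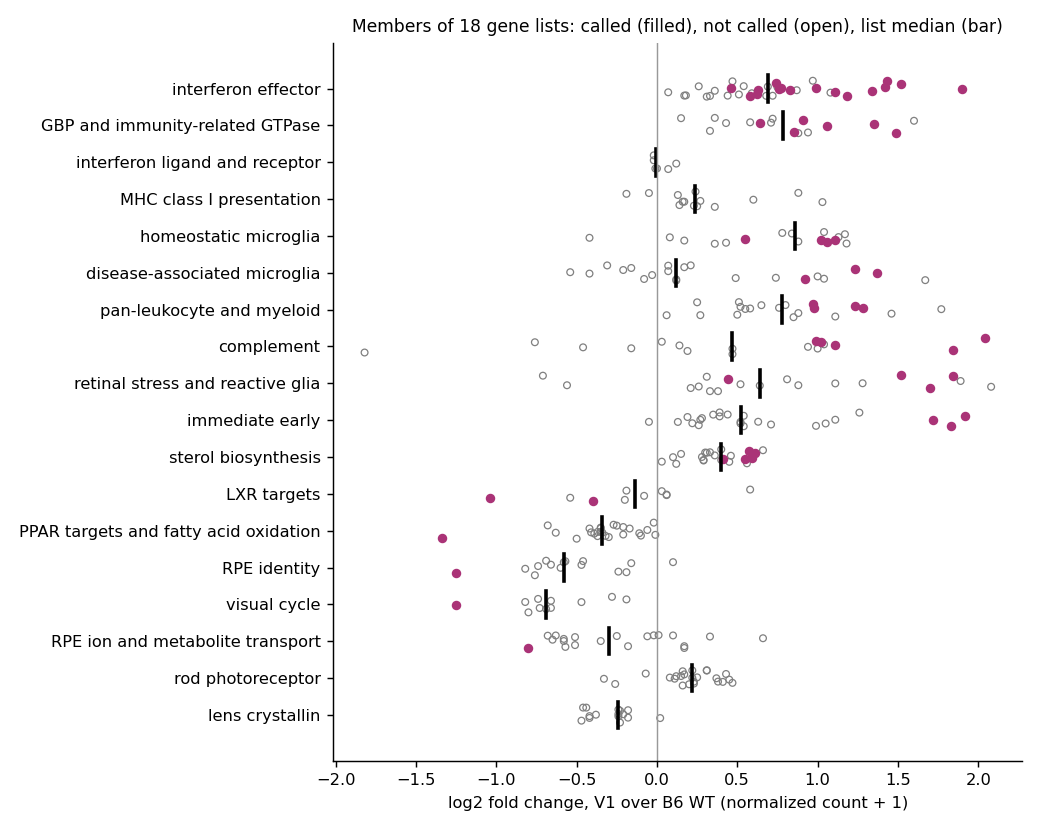
Log2 fold change of V1 over B6 WT for each tested member of 18 gene lists, with filled points for genes that passed the test, open points for those that did not, and a bar at the median of the list. The interferon effector points all lie right of 0 with a median of 0.69, the visual cycle points all lie left of 0 with a median of -0.69, and the 6 interferon ligands and receptors lie between -0.02 and 0.12.

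Guanylate-binding proteins (GBP) and immunity-related GTPases, which act on vacuoles of intracellular pathogens and are induced strongly by interferon gamma, rose in 6 of 16 tested members. All 16 had a positive log2 fold change, with a median of 0.79. *Gbp3* was at 628, 982 and 1267 in B6 WT and 1473, 2004 and 2740.2 in V1, with no overlap (1.06 ± 0.15), and it passed the test in all 12 fits without 1 library. *Gbp5*, 37.7 kb from *Gbp3* on chromosome 3, rose by 0.91 ± 0.18 and *Gbp9* by 0.85 ± 0.16. Among the immunity-related GTPases, *Tgtp1* rose by 1.49 ± 0.28, *Iigp1* by 1.35 ± 0.25 and *Irgm1* by 0.64 ± 0.12. Members of these families are similar in sequence, and how the counting treated reads that fit several of them is not given in the sources used here, so single members are uncertain. The promoter of *Gbp3* at chr3:142559794-142560093 (+) is shown as the leading gene of the group, with the same element in capitals, which begin 44 bases before the start.
Gbp3: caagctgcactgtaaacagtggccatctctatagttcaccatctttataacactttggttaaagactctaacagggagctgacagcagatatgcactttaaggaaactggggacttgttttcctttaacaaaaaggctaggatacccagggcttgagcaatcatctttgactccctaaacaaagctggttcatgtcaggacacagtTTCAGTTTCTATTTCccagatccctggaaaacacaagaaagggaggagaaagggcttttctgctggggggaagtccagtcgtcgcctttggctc
The core was present in 10 of the 11 tested members with a promoter in the table (90.9%) and in each of the 4 that rose and have one, *Gbp3*, *Gbp5*, *Irgm1* and *Tgtp1*. The list's median was 0.93 in replicates 1 to 3 and 0.52 in replicates 4 to 6. Members that rose numbered 3 without V1 replicates 5 and 6 (median 0.79) and 9 with the rod covariate (median 0.79), where 2.65% of all genes changed. Leaving out single libraries left 1 member without V1 6 or without B6 WT 1, 2, 3 or 6, 2 without V1 3 or B6 WT 4 or 5, 3 without V1 2 or V1 5, 4 without V1 1 and 6 without V1 4.

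No interferon or interferon receptor that could be tested passed the test. Of 11 ligands and receptors in the list 6 were tested, 0 passed, and their log2 fold changes lay between -0.02 and 0.12. No member of the class I antigen presentation list (14 tested, median 0.24) or the class II list (7 tested, median -0.00) passed the test. Of 14 cytokines and chemokines tested 0 passed, with a median of 0.35. The summed list, in which abundant members weigh most, was 4482 to 5395 in B6 WT and 6382 to 7443 in V1, without overlap. Taken singly, each of the 14 had overlapping groups. *Cxcl10*, a chemokine induced by interferon gamma, was at 3.93, 8.91 and 13 in B6 WT and 3.62, 82.7 and 118 in V1. One V1 library was as low as any B6 WT library, and the log2 fold change of 2.40 ± 0.71 did not pass the test (limma with Benjamini-Hochberg adjustment, adjusted p = 0.191).

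Transcripts of microglia and other myeloid cells rose in part. All 20 genes of the pan-leukocyte and myeloid list had a positive log2 fold change (median 0.78), 4 rose, and the summed list was 2129.6 to 3554 in B6 WT and 3249 to 5018 in V1. *Laptm5*, a lysosomal membrane gene of leukocytes, was at 201, 228 and 276 in B6 WT and 389.6, 439 and 649.9 in V1 (0.97 ± 0.13). *Fcer1g*, the common gamma chain of Fc receptors, was at 53.7, 66.6 and 77.7 in B6 WT and 116, 133 and 152 in V1 (0.98 ± 0.13). The groups did not overlap for either gene, and both passed the test in each of the 12 fits without 1 library. *Cd53*, a tetraspanin of leukocytes, rose by 1.23 ± 0.19 and *Ly86*, a partner of Toll-like receptors, by 1.28 ± 0.22. *Mpeg1*, the pore-forming perforin-2 of macrophages, which is in none of the myeloid lists and was chosen after its values were seen, rose by 1.23 ± 0.16. The same holds for the integrin chain *Itgb2*, which rose by 1.10 ± 0.17. Members of the list that rose numbered 3 without V1 replicates 5 and 6 (median 0.71) and 3 to 5 without 1 library. With the rod covariate, where 2.65% of all genes changed, 8 rose.

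Among 16 markers of homeostatic microglia 15 had a positive log2 fold change, the median was 0.86 and 4 rose. *C1qc* and *C1qb*, which code for chains of the first complement component and lie 3.62 kb apart on chromosome 4, rose by 1.11 ± 0.19 and 1.02 ± 0.18. *Olfml3*, a matrix gene of microglia, rose by 0.55 ± 0.10, and *Selplg*, the ligand of P-selectin, by 1.06 ± 0.19. *P2ry12*, the purinergic receptor of resting microglia, was at 18.7, 30.4 and 40.7 in B6 WT and 25.3, 63.5 and 153 in V1, and its 1.18 ± 0.29 did not pass the test. The fractalkine receptor *Cx3cr1* was at 0.84 ± 0.18 with an adjusted p of 0.0681 by limma with Benjamini-Hochberg adjustment. *Csf1r*, the growth factor receptor of microglia, was far more abundant than the rest (6146, 7526 and 10101 in B6 WT and 3404, 6578 and 8518 in V1) with a log2 fold change of -0.42 ± 0.16 that did not pass. The summed list, in which *Csf1r* is the largest term, was 10307 to 14084 in B6 WT and 9717 to 13153 in V1. The median was 0.59 in replicates 1 to 3 and 1.09 in replicates 4 to 6. Without V1 replicates 5 and 6 no member passed the test (0 of 16) with a median of 0.63. With the rod covariate, where 2.65% of all genes changed, 8 rose. Of single libraries, leaving out V1 1, V1 2, B6 WT 1, B6 WT 5 or B6 WT 6 left 0 members, V1 5, B6 WT 3 or B6 WT 4 left 1, V1 6 left 2 and V1 3 gave 7.

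Of 21 markers of disease-associated microglia, the state described around dying neurons, 3 rose and the median was 0.12. *Trem2*, a lipid-sensing receptor, was at 30.8, 34.0 and 36.3 in B6 WT and 40.3, 80.0 and 143 in V1 (1.23 ± 0.23). Its V1 values were 40.3 to 73.0 in replicates 1 to 3 and 86.9 to 143 in replicates 4 to 6, and its log2 fold change was 0.73 in the first set and 1.73 in the second. *Tyrobp*, the adaptor of TREM2, rose by 0.92 ± 0.17 and *Clec7a*, the beta-glucan receptor, by 1.37 ± 0.21. *Itgax*, which codes for CD11c, was at 1.00 ± 0.22 and did not pass the test. *Apoe*, a member of this list, is among the most abundant transcripts of these libraries, and the summed list was 177238 to 218213 in B6 WT and 120394 to 215716 in V1. *Ctss*, a cysteine protease of antigen-presenting cells, was the only one of 29 lysosomal genes that changed, with an increase of 1.07 ± 0.16 and a list median of -0.16. Members of the disease-associated list that rose numbered 2 without V1 replicates 5 and 6 and 7 with the rod covariate (2.65% of all genes). They numbered 4 without V1 4, 2 without V1 3, V1 5 or V1 6 and 1 without any other single library. Of 9 lymphocyte markers 4 were tested and 0 passed. Whether the number of myeloid cells in the preparation had a part in these or the interferon results was not tested.

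Of 17 complement genes tested 5 rose and 0 fell. The log2 fold changes, 13 positive and 4 negative, reached from -1.82 to 2.04 with a median of 0.47. The summed list was 22558 to 27642 normalized counts in B6 WT and 16723 to 26718 in V1. *C4b*, the fourth component, was at 777, 1182 and 1375 in B6 WT and 1735, 3723 and 7084 in V1. The groups did not overlap, and the log2 fold change was 1.84 ± 0.21 (limma with Benjamini-Hochberg adjustment, adjusted p = 0.00204). *Cfi*, the protease that cleaves C3b and C4b, was at 13.6, 22.2 and 27.0 in B6 WT and 51.4, 87.8 and 166 in V1 (2.04 ± 0.23). *C3ar1*, the receptor for the C3a fragment, rose by 0.99 ± 0.17, beside *C1qb* and *C1qc*, which are also counted among the markers of homeostatic microglia. With the rod covariate, where 2.65% of all genes changed, 7 members rose and 1 fell. The count of 5 went to 2 without V1 replicates 5 and 6, to 2 without V1 2, B6 WT 1, B6 WT 5 or B6 WT 6, to 3 without V1 1 or B6 WT 4 and to 7 without V1 3.

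Of 19 tested genes that retina and glia induce under stress 4 rose, with a list median of 0.64 (0.49 in replicates 1 to 3 and 0.66 in replicates 4 to 6). One of the 4 is *C4b*, which is also counted in the complement list. *Cebpd*, a transcription factor of the acute phase, was at 119, 139 and 208 in B6 WT and 351, 454 and 885 in V1 (1.70 ± 0.21). *Socs3*, which feeds back on gp130 cytokine signalling, was at 162, 195 and 224 in B6 WT and 388, 449.9 and 1184 in V1 (1.52 ± 0.25). In both genes the lowest V1 library lay above the highest B6 WT library and V1 replicate 6 was highest. *Stat3*, which carries that signal, rose by 0.44 ± 0.08, and *Socs3* was the only one of 13 genes of SOCS and NF-kappaB feedback that passed the test. *Gfap*, the filament of reactive glia, was at 515, 989 and 2424 in B6 WT and 526, 2858 and 3504 in V1 and did not pass (1.11 ± 0.43). *Lcn2*, an acute-phase carrier on chromosome 2, was at 52.4, 81.7 and 128 in B6 WT and 145, 231 and 1870.0 in V1, without overlap, yet its 1.89 ± 0.50 did not pass. *Edn2*, the endothelin that injured photoreceptors release, had 298 normalized counts in V1 replicate 5 and 878 in V1 replicate 6 against 3.93 to 33.6 in B6 WT. Its log2 fold change was -0.01 in replicates 1 to 3 and 4.16 in replicates 4 to 6. The survival factor *Fgf2* had 1764 and 2699 in the same 2 V1 libraries, those with the largest rod sums, against 203 to 308 in B6 WT, and neither gene passed the test. With the rod covariate, where 2.65% of all genes changed, 7 members of the list rose and 1 fell. Members that rose numbered 5 without V1 replicates 5 and 6, 6 without V1 5, and 2 without B6 WT 2, B6 WT 5 or B6 WT 6. Without 1 of the same 3 B6 WT libraries *Socs3* no longer passed the test.

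**Figure D4:**
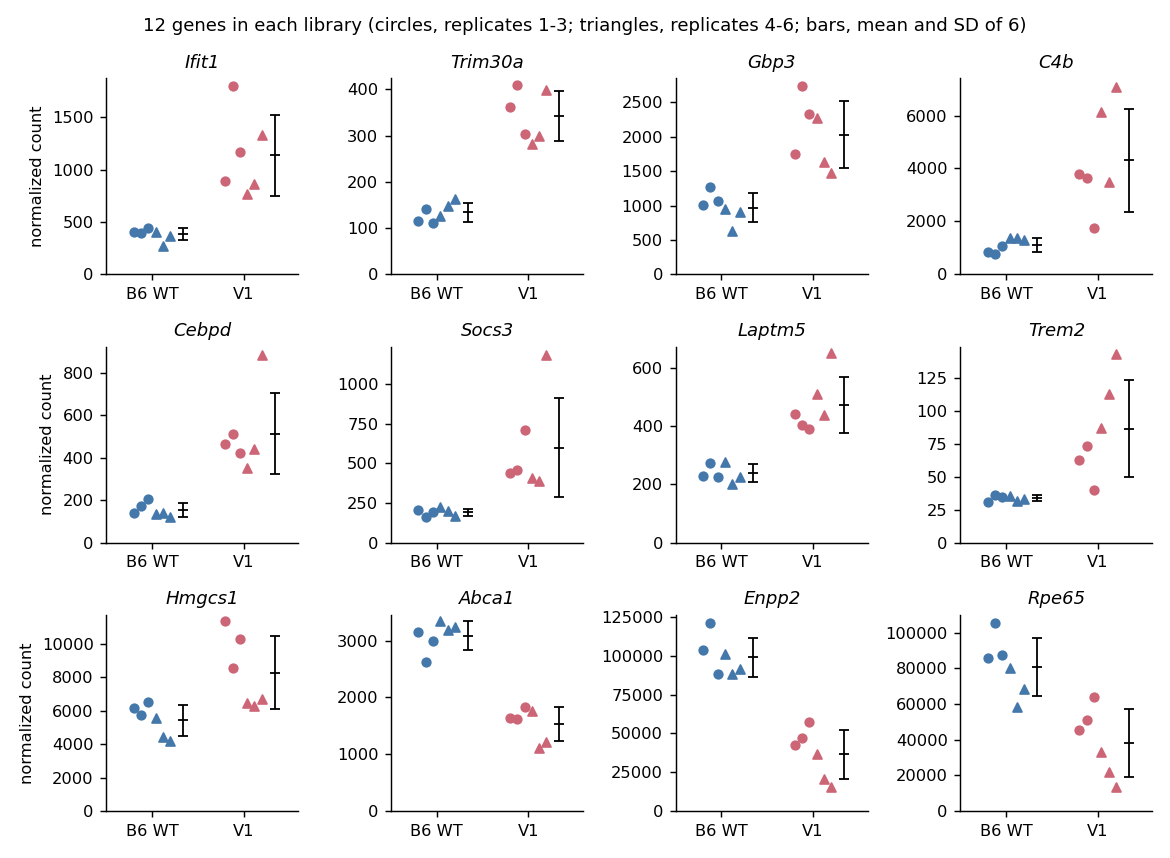
Normalized counts of 12 genes in each of the 6 B6 WT (blue) and 6 V1 (red) libraries, with circles for replicates 1 to 3, triangles for replicates 4 to 6, and bars for the mean and SD of 6. *Ifit1*, *Trim30a*, *Gbp3*, *C4b*, *Cebpd*, *Socs3*, *Laptm5* and *Trem2* show no overlap upward, *Abca1* and *Enpp2* none downward, while *Hmgcs1* and *Rpe65* overlap across the replicate sets.

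Immediate early genes, which cells switch on within minutes of a stimulus and during tissue handling, rose in 3 of 24 tested. The list's median was 0.52 and 23 of the 24 log2 fold changes were positive. *Fosb*, a partner of JUN, was at 29.8, 38.2 and 91.4 in B6 WT and 66.4, 167 and 271 in V1 (1.83 ± 0.31), and its groups overlapped through B6 WT replicate 2. *Atf3*, a stress-induced factor of the same superfamily, rose by 1.72 ± 0.33, and *Egr3*, a zinc finger factor, by 1.92 ± 0.38 from a B6 WT median of only 5.75. They passed the test in 5, 2 and 1 of the 12 fits without 1 library. The list's count was 6 without V1 4, 2 without B6 WT 4 and 1 without V1 1, V1 5 or B6 WT 2. It was 0 without any other single library or without V1 replicates 5 and 6. With the rod covariate, where 2.65% of all genes changed, 5 members rose.

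Of 23 genes of sterol biosynthesis 6 rose, each by less than 1 on the log2 scale. All 23 had a positive log2 fold change, and the median was 0.40. *Hmgcs1*, the synthase that feeds the mevalonate pathway, was at 4191, 5632 and 6511 in B6 WT and 6279, 7629 and 11378 in V1 (0.59 ± 0.10). *Idi1* rose by 0.61 ± 0.10 and *Mvd* by 0.59 ± 0.11, enzymes that make isoprenoid units. *Fdft1*, squalene synthase, rose by 0.55 ± 0.10 and *Lss*, which closes the first sterol ring system, by 0.41 ± 0.08. *Insig1*, a sterol sensor that restrains SREBP processing, rose by 0.57 ± 0.09. For each of these 6 genes the 6 B6 WT and 6 V1 libraries overlapped as a whole but not within either replicate set.

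The *Hmgcs1* promoter at chr13:119690101-119690400 (+) is shown with a sterol regulatory element core, TCACNCCAC on either strand, in capitals, which begin 137 bases before the start.
Hmgcs1: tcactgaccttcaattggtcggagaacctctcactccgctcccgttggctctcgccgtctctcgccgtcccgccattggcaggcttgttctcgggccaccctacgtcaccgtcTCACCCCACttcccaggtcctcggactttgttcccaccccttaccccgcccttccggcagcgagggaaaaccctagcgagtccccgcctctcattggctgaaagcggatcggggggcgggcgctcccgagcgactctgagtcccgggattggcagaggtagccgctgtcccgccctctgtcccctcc
This core was present in 388 of 27025 genes with a promoter in the table (1.44%) and in 181 of 12807 genes tested (1.41%). Of the 15 tested members of the list with a promoter there 1 held it (6.67%), *Hmgcs1* itself, which is 1 of the 5 such genes that rose (20.0%). The list's median was 0.42 in replicates 1 to 3 and 0.36 in replicates 4 to 6. Without V1 replicates 5 and 6, 7 members rose, and 13 did with the rod covariate, where 2.65% of all genes changed. Single libraries changed the count more, to 9 without B6 WT 4, 4 without V1 5 or V1 6, 3 without V1 3, 2 without V1 1, V1 2 or B6 WT 3, and 0 without B6 WT 1, 2, 5 or 6.

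Of 10 targets of the liver X receptors, nuclear receptors that sense oxysterols, 2 fell and 0 rose. Of the 10 log2 fold changes 6 were negative and 4 positive, with a median of -0.13. *Abca1*, the exporter of cholesterol and phospholipid, was at 2629, 3168 and 3338 in B6 WT and 1112, 1629 and 1831 in V1. The groups did not overlap, the log2 fold change was -1.04 ± 0.13 (limma with Benjamini-Hochberg adjustment, adjusted p = 0.00271), and the gene passed the test in all 12 fits without 1 library. *Srebf1*, which codes for the SREBP-1 factor of fatty acid synthesis, fell by 0.40 ± 0.06 and lost the call in 1 fit without 1 library, that without B6 WT replicate 6. *Fads2*, a desaturase of polyunsaturated fatty acids, chosen after its values were seen, fell by 0.62 ± 0.09. *Apoe*, another target, had means of 89069 normalized counts in B6 WT, with a log2 fold change of -0.54 ± 0.16 that did not pass. *Abcg1*, an exporter of cholesterol to lipoproteins, was at 0.58 ± 0.18 and did not pass either. All 25 genes of the list of PPAR targets and fatty acid oxidation had a negative log2 fold change (median -0.34). One-sided signs also occurred in lists without a call, given below. Of the 25 genes 1 passed, *Angptl4*, a fasting-induced inhibitor of lipoprotein lipase. It was at 429.8, 682 and 1237 in B6 WT and 172, 272 and 377 in V1 (-1.34 ± 0.20). The PPAR median was -0.12 in replicates 1 to 3 and -0.56 in replicates 4 to 6. Of 20 NRF2 antioxidant genes only the quinone reductase *Nqo1* fell (-0.99 ± 0.20), and it passed the test in 1 of the 12 fits, that without V1 replicate 4. Without V1 replicates 5 and 6 the medians of the LXR, PPAR and NRF2 lists were 0.05, -0.13 and -0.10, with 2, 1 and 0 members called. With the rod covariate, where 2.65% of all genes changed, 2, 3 and 4 members fell, with medians of -0.09, -0.28 and -0.18.

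Most RPE genes had negative log2 fold changes that did not pass the test. Of 15 RPE identity markers 14 had a negative log2 fold change and the median was -0.58, and all 11 visual cycle genes were negative with a median of -0.69. *Rpe65*, the isomerase of the visual cycle, was the only gene that fell in either list. It was at 58354, 82891 and 105278 normalized counts in B6 WT and 13235, 39243 and 63795 in V1 (-1.25 ± 0.24, limma with Benjamini-Hochberg adjustment, adjusted p = 0.0375), and it passed the test in 3 of the 12 fits, those without V1 3, V1 4 or V1 6. Its log2 fold change was -0.80 in replicates 1 to 3 and -1.69 in replicates 4 to 6. *Lrat*, which esterifies retinol, was at -0.74 ± 0.22, the retinol-binding protein receptor gene *Stra6* at -0.80 ± 0.21 and *Ttr*, the carrier of thyroxine and retinol, at -0.82 ± 0.22, and none of the 3 passed. *Otx2*, a transcription factor of RPE identity, was at -0.46 ± 0.11 and the keratin *Krt18* at -0.60 ± 0.13, also without passing. Of 20 transport genes *Slc16a1*, the lactate transporter MCT1, fell by 0.80 ± 0.15 and the list's median was -0.30. Both medians of the RPE lists were closer to 0 in replicates 1 to 3 (-0.31 and -0.40) than in replicates 4 to 6 (-0.82 and -0.94), and without V1 replicates 5 and 6 they were -0.30 and -0.38 with *Rpe65* still called in each. With the rod covariate 5 RPE markers and 4 visual cycle genes fell, but in that fit 2.65% of all genes changed beside 0.702% in the main fit. The count of RPE markers was 3 without V1 4, 1 without V1 3 or V1 6 and 0 without any other single library, and the visual cycle count was 2 without V1 4 and otherwise the same. The transport count was likewise 2 without V1 4, 1 without V1 3 or V1 6 and 0 without any other. Rod sums were highest, at 1174562 and 733747, in V1 replicates 5 and 6, where RPE sums were lowest, and their part in these values was not tested.

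The largest falls outside chromosome 2 belonged to genes that shared no list. Of 11 secretory and melanosomal Rab genes tested only *Rab37* changed, and the median of that list was -0.04. *Rab37*, a small GTPase of regulated secretion at chr11:115091431-115162236, was at 1685, 2196 and 2481 in B6 WT and 275, 361 and 470.2 in V1 (-2.56 ± 0.14). The groups were far apart in both replicate sets (-2.64 and -2.49). Near *Rab37* on chromosome 11 only genes that changed were looked up, so the other genes of the region were not examined. *Slc9a3r1*, an apical scaffold gene 1.10 kb away, fell by 0.93 ± 0.18. *Dnaic2*, a dynein chain gene 334 kb away, fell by 0.61 ± 0.12. Each of these 2 passed the test in 1 of the 12 fits without 1 library, and both were chosen after their values were seen. *Ins2*, an insulin gene transcribed in RPE (chr7:142678656-142743381), was at 72.1, 109 and 158 in B6 WT and 1.12, 15.7 and 20.5 in V1 (-3.25 ± 0.42). *Ffar2*, a receptor for short-chain fatty acids, fell by 2.09 ± 0.28 and *Stox1*, a winged-helix gene, by 1.36 ± 0.17.

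*Enpp2* codes for autotaxin, the secreted enzyme that makes lysophosphatidic acid, and is among the most abundant RPE transcripts here. It was at 88055, 96249 and 121105 in B6 WT and 15239.7, 39352 and 57448 in V1, without overlap. Its log2 fold change was -1.57 ± 0.24 (limma with Benjamini-Hochberg adjustment, adjusted p = 0.0117), with -1.10 in replicates 1 to 3 and -2.05 in replicates 4 to 6. *Sfrp5*, a secreted Wnt antagonist, fell by 1.28 ± 0.21 and passed in 9 of the 12 fits without 1 library. The cytokine gene *Il25* was at 27.5, 45.5 and 50 in B6 WT and 6.07, 15.7 and 27.5 in V1 (-1.47 ± 0.28) and passed in 1 of them. *Rab37*, *Ins2*, *Ffar2*, *Stox1* and *Enpp2* passed in all 12. *Duox2*, an oxidase that makes hydrogen peroxide, lies on chromosome 2 and fell by 1.47 ± 0.28, from 40.6, 103 and 139.9 in B6 WT to 15.7, 35.4 and 45.8 in V1. Its groups overlapped, and it passed in 1 of the 12 fits, that without V1 replicate 4.

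The 3 largest rises outside chromosome 2 were those of genes that resemble chromosome 2 genes in sequence. *Gm3650* was at 4.86, 8.03 and 9.25 in B6 WT and 126, 152 and 167 in V1 (4.19 ± 0.18), *Eif3j2*, 0.249 kb from it on chromosome 18, rose by 2.84 ± 0.18, and *Pcna-ps2* on chromosome 19 by 3.23 ± 0.26. The *Eif3j2* transcript matched that of *Eif3j1* on chromosome 2 at 99.4% of 2379 of its 2379 bases, *Gm3650* matched it over 181 of 747 bases, and *Pcna-ps2* matched *Pcna* on chromosome 2 at 99.2% of 781 of its 781 bases. *Eif3j1* fell by 0.86 ± 0.08 and *Pcna* by 0.52 ± 0.06. V1 mice carry sequence of the stem cell strain on chromosome 2, and how reads from these pairs were divided between copies was not tested, so the values of these 5 genes are uncertain.

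Many programmes held no gene that passed the test. Of 78 oxidative phosphorylation genes 0 passed (median -0.18), and the same was true of 13 mitochondrially encoded genes (median -0.20) and 73 cytosolic ribosomal protein genes (median -0.03). Neither inducible heat shock genes (12 tested, median -0.03), the integrated stress response (21, 0.07), the unfolded protein response (12, -0.13), glycolysis and lactate genes (19, 0.12) nor p53 targets and apoptosis genes (14, 0.10) held a call. Genes of outer segment binding and engulfment, the process that MERTK drives, had a median of -0.10 with 0 of 18 called. That list leaves out *Mertk* and *Tyro3*, which both fell. Autophagy genes had a median of 0.01 with 0 of 13 called. Melanin and melanosome genes were at -0.23 with 0 of 15 called, the circadian clock at -0.03 (17 tested) and genes of Bruch's membrane and matrix at -0.05 (22 tested). Rod genes had a median of 0.22, cone genes 0.58, endothelial genes 0.28, fibroblast genes 0.32 and lens crystallins -0.24, each list with 0 called. The rod median was -0.11 in replicates 1 to 3 and 0.51 in replicates 4 to 6, and the lens median 0.61 and -1.10. Signs were one-sided in several of these lists without a call. Negative were 74 of the 78 oxidative phosphorylation genes, all 13 mitochondrially encoded genes and all 15 melanin and melanosome genes. All 12 endothelial and all 8 fibroblast genes were positive. Clock genes (8 positive, 9 negative) and autophagy genes (7 and 6) were mixed.

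The effect of V1 was then compared between the replicate sets. All 132 genes that changed had the same sign in both sets. They were selected by a fit on both sets together, which favours a shared sign, so this is no independent check. In replicates 1 to 3 alone 23 of 18241 genes changed (0.126%), 18 of them outside chromosome 2. All 23 had the same sign in replicates 4 to 6, where the groups of 3 did not overlap for 21 of the 23. The shares of all genes that did so in replicates 4 to 6 were not counted, so these counts have no background. The 23 include *Ins2*, *Rab37*, *Ffar2*, *Stox1* and *Abca1* downward and *Idi1*, *Fdft1*, *Mpeg1*, *Rtp4*, *Cebpd* and *Trim30a* upward. In replicates 4 to 6 alone 1 of 19096 genes changed (0.00524%). Of the 35 genes that fell outside chromosome 2, 30 had the larger change in replicates 4 to 6 (median -0.74 in the first set and -1.06 in the second). Of the 72 that rose 31 did (medians 0.95 and 1.00). The share over all genes was not counted. V1 replicates 5 and 6 had the lowest RPE sums, 305533 and 235314, and their part in these counts was not tested. The interaction of genotype and set passed the test for 0 genes by limma with Benjamini-Hochberg adjustment, and 1249 genes (6.65%) had an unadjusted p under 0.05. By other tools the interaction passed for 4 genes with DESeq2 and 0 with edgeR, and it passed for 1508 in limma without V1 replicate 4.

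**Figure D5:**
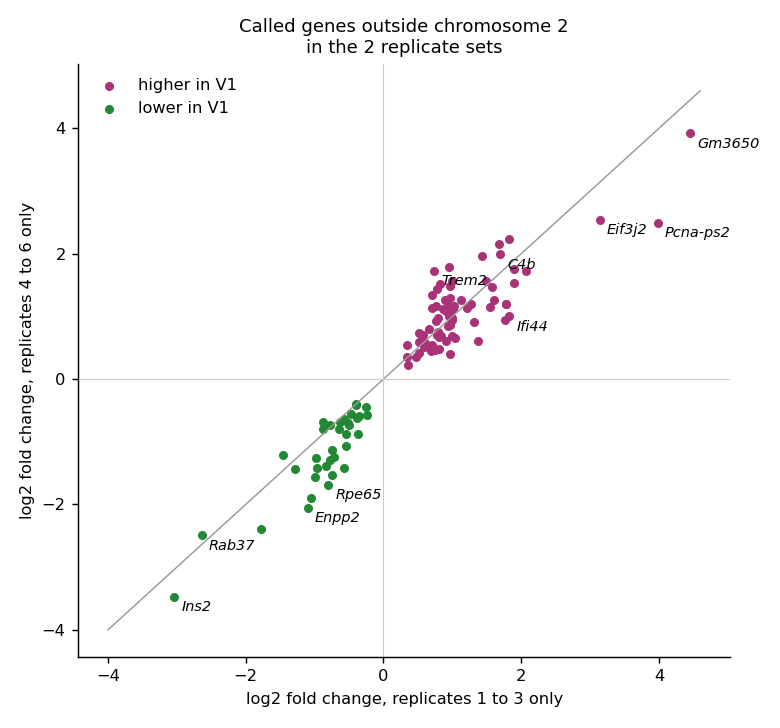
Log2 fold change of V1 over B6 WT in replicates 1 to 3 (horizontal axis) and in replicates 4 to 6 (vertical axis) for the 107 genes outside chromosome 2 that passed the test in all 12 libraries together, with the line of equal change. Genes that rose (purple) and genes that fell (green) keep their sign in both sets, which their selection on both sets together favours. Of the 35 green points 30 show the larger change in replicates 4 to 6, a share that was not counted over all genes.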

How the data were processed

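RNA-seq of RPE from 6 B6 WT and 6 *Mertk*-/-V1 mice at P25 was analysed. Per the study's methods, reads were trimmed (btrim) and aligned to GRCm38 (STAR), and DESeq2 gave the normalization. The read counter, the annotation and the versions of these tools are not given in the sources used here. The values the authors deposited are a signal per gene, the read count divided by 1 DESeq2 size factor per library, called normalized counts here. Dividing by the smallest step of each library recovered whole reads for 100% of values (tolerance 0.01). Sample columns without a matching sample numbered 0. Totals of 14137666 to 34124049 reads per library bound the precision, and these and all errors cover only the spread and counting seen in the libraries given. Samples were grouped by the tissue and genotype of their labels.

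Genes averaging 10 normalized counts or more over the 12 libraries were fitted in R 4.3.3 with limma 3.58.1 (lmFit, then trended eBayes) on log2(normalized count + 1), with replicate set (replicates 1 to 3 or 4 to 6) and genotype as terms. Log2 fold changes are on this scale, which understates changes of low genes, and are given ± SE. P-values are two-sided and were adjusted by Benjamini-Hochberg over all genes tested. Quasi-likelihood edgeR 4.0.16 and DESeq2 1.42.0 on recovered reads, other filters, other scalings, a replicate block and fits without 1 or several libraries were alternatives. The fits without replicates 5 and 6 of V1 or of both groups were chosen after seeing the data.

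The genes named are *Mertk*, *Tyro3* and *Axl*, up to 10 rises and 10 falls outside chromosome 2 among DEGs (log2 fold change of 1.25 or more in size), up to 4 members of smallest p in each list, and, chosen after their values were seen, *Eif3j1*, *Pcna*, *Mpeg1*, *Itgb2*, *Fads2*, *Slc9a3r1*, *Dnaic2* and these further list members: *Rtp4*, *Stat2*, *Irf7*, *Ifi44*, *Rsad2*, *Cmpk2*, *Usp18*, *Isg15*, *Tgtp1*, *Gbp5*, *Mvd*, *Lss*, *Cx3cr1*, *P2ry12*, *Csf1r*, *Lcn2*, *Gfap*, *Edn2*, *Lrat* and *Best1*. The comparison, the 51 gene lists and the genes were chosen with earlier results of these data known. Lists are described by counts and medians and were not tested. The share of positive and negative log2 fold changes over all genes was not counted, so sign counts of lists have no background. Gene positions came from the GRCm38 annotation, which matched 55480 of 55573 identifiers. Promoters came from RefSeq (GRCm38.p6) and were searched on both strands, and transcripts were compared with blastn 2.17.0. Python 3.11.15 was used for tables and figures, and the fit was tested on simulated data. A few list members are not reported here.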

Additional observations from a re-analysis of the deposited data

Results flagged for a closer look

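In each group of 6 libraries, the highest or lowest library was compared with its nearest neighbour relative to the range of the group (Dixon's ratio, at its 95% critical value) for each gene named with values. Of 178 groups 17 held a library that stood apart, and chance sets apart about 1 in 20. In V1, replicate 6 was the highest library for *Tyrobp* (252 normalized counts), *Ctss* (1379), *Cfi* (166), *Cebpd* (885), *Lcn2* (1870.0) and *Edn2* (878), so 6 of the 17 fell on the library with the lowest RPE marker sum, 235314. V1 replicate 2 was highest for *Ifi44* (226), and V1 replicate 3 was lowest for *Axl* (1444). In B6 WT, replicate 5 was lowest for *Irf9* (859.7) and *Irgm1* (735) and highest for *Ifi44* (77.3) and *Abcg1* (1283). B6 WT replicate 2 was highest for *Tgtp1* (66.8), *Fosb* (91.4) and *Sfrp5* (2139), replicate 3 for *Clec7a* (59.3) and replicate 4 for *Ctss* (481).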

How the results depend on the processing

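Counts of genes depended on the tool and the libraries, and the cause was not tested. The 132 genes with an adjusted p under 0.05 became 471 with DESeq2, 351 with array quality weights, 499 with the rod covariate, 73 with all 18 RPE libraries and no term for the set, 56 without that term, 23 in replicates 1 to 3 and 1 in replicates 4 to 6, and ranged from 58 to 224 without 1 library. The 38 DEGs, which also passed the threshold on size, became 71 with DESeq2, 24 without the term, 11 and 1 in the single sets, 22 without V1 replicates 5 and 6 and 22 without replicates 5 and 6 of both groups, and ranged from 26 to 56 without 1 library. The 28 DEGs outside chromosome 2 became 54, 17, 10, 1, 16 and 16 under the same settings in that order and ranged from 18 to 45. The share of the list members tested that changed, 6.95%, became 15.2% with DESeq2, 13.2% with array weights, 15.4% with the rod covariate, 4.22% with all 18 libraries, 3.53% without the term, 1.07% and 0.0% in the single sets and 4.36% without replicates 5 and 6 of both groups, and ranged from 3.05% to 8.35% without 1 library. The interaction of genotype and set passed for 4 genes with DESeq2, 3801 with array weights and 0 to 1508 without 1 library. With edgeR 111 genes changed, 107 of them among the 132, and all 132 changed with DESeq2.

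Same-numbered replicates of the 2 groups did not deviate together in every pair (correlations of -0.02, -0.06, -0.11, 0.57, 0.41 and 0.09). For replicates 4 and 5 the best-matching V1 library had the same number, and for the others it did not. Whether any same-numbered libraries were handled together is not given in the labels. With a replicate block 101 genes changed, 31 of them DEGs and 22 of those outside chromosome 2, and 5.42% of the list members tested changed. No named gene that passed the test changed sign under any setting run, but each setting used libraries from the fit that made the call. Of those that did not pass, *Edn2* turned to -0.01 in replicates 1 to 3, and *Best1*, at -0.06 to 0.24 without 1 library (-0.06 without V1 replicate 1), to -0.03 without V1 replicates 5 and 6 and -0.12 without replicates 5 and 6 of both groups. Of 1326 list medians recomputed, 41 moved by more than the spread allowed.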
